A study of Mus musculus with 19 samples.

Results

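The genes described are 10 that dispose of ammonia and break down amino acids in the liver: Cps1, Otc, Slc25a15, Nags, Ass1, Asl, Arg1, Gls2, Hal and Sds. They were taken by name, and every non-control probe assigned to them by its RefSeq accession was used. This gave 12 probes of the 55681 on the array, with 2 probes each for Otc and Ass1 and 1 for each other gene. All 12 were among the 29415 probes kept for testing. The samples were pieces of liver from 19 male mice, 10 weeks old, of the transgenic strain 40.6. The mice had received dibenz[a,h]anthracene (DB[a,h]A), a polycyclic aromatic hydrocarbon, at 0 mg/kg (control, n = 5), 6.25 mg/kg (n = 5), 12.5 mg/kg (n = 4) or 25 mg/kg (n = 5), and liver was examined 3 days later. All animals, controls included, carried the transgene, and the labels name no driving promoter. On every array the liver of 1 animal was labelled red (Cy5) and a commercial reference RNA, made from 11 cell lines of mouse, was labelled green (Cy3), and the dyes were never exchanged.

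The urea cycle turns ammonia into urea, mostly in the hepatocytes that surround the portal vein. Carbamoyl phosphate synthetase and ornithine transcarbamylase work inside the mitochondrion, and the remaining steps take place in the cytosol. Glutaminase, histidine ammonia-lyase and serine dehydratase release ammonia from amino acids, and hormones and diet are known to control many of these genes. In whole liver RNA, fewer cells of a type and less RNA per cell cannot be told apart.

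None of the 10 genes changed past the threshold at any dose. With limma over all 29415 probes and Benjamini-Hochberg adjustment, 0 of the 12 probes passed at 25 mg/kg, where 0.0578% of all probes did. None passed at 12.5 mg/kg or at 6.25 mg/kg, where 0% of all probes did. The F test over doses called 0 of the 12 probes against 0.0102% of all probes, and the linear trend on dose called 0 against 0.0204%. At an unadjusted p under 0.05 the count was also 0 of 12 in each of these tests, where all probes reached 7.37% at 25 mg/kg, 4.21% at 12.5 mg/kg, 5.57% at 6.25 mg/kg, 5.08% in the F test and 5.87% in the trend. The smallest adjusted p of any of the 12 probes was 0.813 at 25 mg/kg, 0.999 at 12.5 mg/kg and 0.929 at 6.25 mg/kg.

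The slide on which an array sat took a larger share of the variance than dose group for each of the 10 genes other than Asl. The arrays lay on 3 slides that each held all 4 groups. Slide 1 carried 2 controls and 1 array per dose, slide 2 carried 2 per group, and slide 3 carried 1 control, 2 arrays at 6.25 mg/kg, 1 at 12.5 mg/kg and 2 at 25 mg/kg. In a fit with dose group and slide, the slide term called 12 of 12 probes, where it called 58.0% of all probes. Liver spots were well above background at 38.3 to 56.7% on slide 1 and at 35.5 to 44.4% on slide 2. On slide 3 the share was 46.5 to 51.2%. The lowest share on slide 1 came from the 12.5 mg/kg array, and the other arrays of that slide gave 52.4 to 56.7%. The lowest on slide 2 also came from a 12.5 mg/kg array, and the lowest on slide 3 from the control. Each dose result is therefore given with and without slide as a block.

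Every one of the 12 probes read above 0 on the log2 scale of liver over reference on all 19 arrays. A value of 0 would mean equal signal in liver and in the cell line pool. Liver signal was well above background on 19 of 19 arrays for each probe and saturated on none. The mean of log2 liver over reference was 7.43 for Cps1, 8.61 for Otc, 3.41 for Slc25a15, 5.13 for Nags, 4.45 for Ass1, 3.79 for Asl, 7.60 for Arg1, 5.33 for Gls2, 6.33 for Hal and 5.96 for Sds. Probes differ in their own efficiency, so these values do not rank the genes by abundance. Slc25a15 had reference signal above background on 8 of 19 arrays and the brighter Otc probe on 17, so the size of these ratios rests partly on a dim reference. For Slc25a15 the mean was 3.72 without background subtraction. With the processed signals of the scanner software, its means on slides 1, 2 and 3 were 6.54, 5.83 and 5.85. Those of the brighter Otc probe were then 11.2, 10.3 and 10.8, so the level of both depends strongly on the processing.

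Both genes with 2 probes gave like readings. After each slide was centred on its own mean, the 2 Ass1 probes correlated at 0.87 over the 19 arrays and the 2 Otc probes at 0.80. The brighter Otc probe read 1.52 to 2.14 above the dimmer probe on the log2 scale, and the brighter Ass1 probe read 0.26 to 0.56 above its partner. The dimmer Otc probe was printed in 10 spots, whose values on an array had a standard deviation of 0.0736 to 0.272. Its residual standard deviation between animals was 0.637, or 0.182 with slide in the fit.

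Promoter sequence was given for 5 of the 10 genes. These came to 6 windows, 2 of them of Slc25a15. The windows of Otc, Nags and Hal are shown because Otc correlated with Nags and with Hal between animals and because they are the windows that held C/EBP-like letters. Each run is the 250 bases before the RefSeq start of the gene in build GRCm38.p6, read 5′ to 3′ on the plus strand. Otc lies at chrX:10252055-10252304, Nags at chr11:102145263-102145512 and Hal at chr10:93488518-93488767. Capitals mark matches on either strand to TATAA (the TATA box), CCAAT (the CCAAT box), TGACG (core of the cyclic AMP response element), TTNNGNAA (C/EBP-like letters), CAAAGNNCA (an HNF4-like element) and TGTTCT (from the glucocorticoid response element).
Otc: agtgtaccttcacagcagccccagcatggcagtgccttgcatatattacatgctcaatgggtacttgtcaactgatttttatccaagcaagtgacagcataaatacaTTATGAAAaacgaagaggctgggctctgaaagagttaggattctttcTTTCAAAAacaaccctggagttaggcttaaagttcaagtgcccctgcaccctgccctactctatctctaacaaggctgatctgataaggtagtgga
Nags: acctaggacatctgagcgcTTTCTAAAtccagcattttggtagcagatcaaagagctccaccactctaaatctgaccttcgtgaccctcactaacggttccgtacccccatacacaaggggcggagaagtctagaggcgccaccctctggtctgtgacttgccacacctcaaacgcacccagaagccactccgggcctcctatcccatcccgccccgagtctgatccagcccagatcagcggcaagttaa
Hal: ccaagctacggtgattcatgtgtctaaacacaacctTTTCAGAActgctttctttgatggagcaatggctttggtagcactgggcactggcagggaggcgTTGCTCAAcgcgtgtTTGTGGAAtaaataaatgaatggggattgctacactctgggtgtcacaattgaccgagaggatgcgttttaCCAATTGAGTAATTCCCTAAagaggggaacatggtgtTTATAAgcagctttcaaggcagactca
The C/EBP-like letters matched 2 times in the Otc window, 1 time in the Nags window and 5 times in the Hal window, and it had no match in the Ass1 window or in either Slc25a15 window. At least 1 match was thus present in 3 of the 6 windows, against 36.8% of all 32851 windows of this length. The Hal window also held TATAA 26 bases before the start, a motif found in 22.8% of all windows, and CCAAT, found in 33.8%. The CCAAT match in the Hal window shared its last base with a C/EBP-like match. TGACG, CAAAGNNCA and TGTTCT were in none of the 3 windows shown, against 17.8%, 5.49% and 16.1% of all windows. The Otc and Hal windows had 43.6% and 45.6% G and C bases, against 55.6% for Nags and 75.6% for Ass1.

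**Figure D1:**
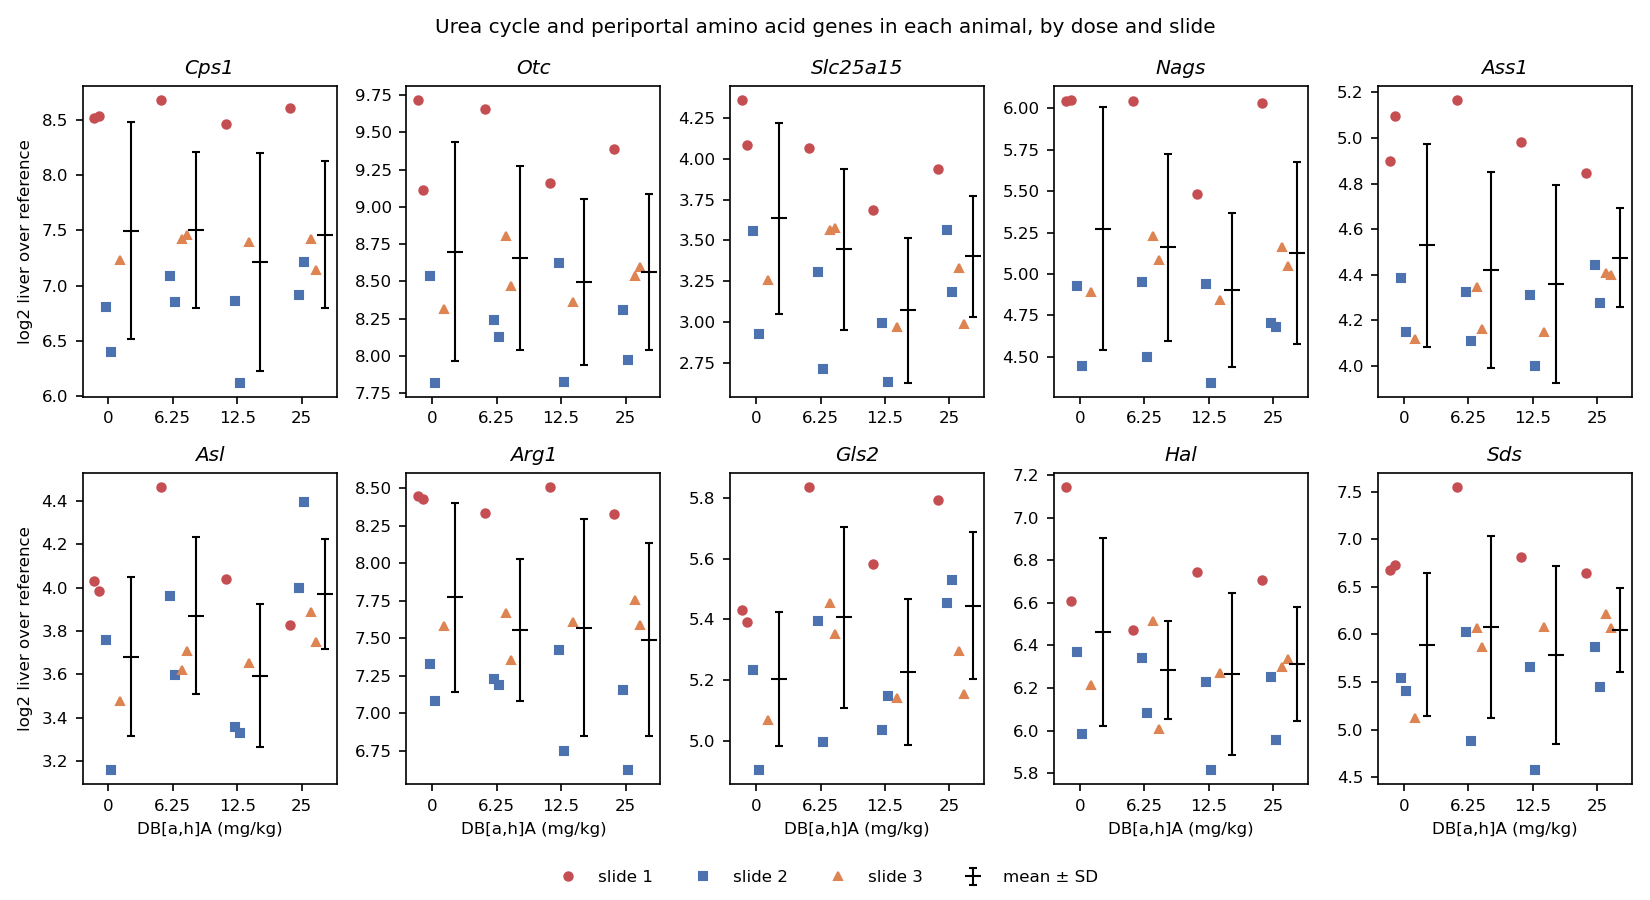
Log2 liver over reference (vertical axes) for the brightest probe of each of the 10 genes in each animal, by dose of DB[a,h]A in mg/kg (horizontal axes). Circles, squares and triangles mark slides 1, 2 and 3, and bars give the group mean ± SD (n = 5, 5, 4 and 5). In most panels the circles of slide 1 stand above all other points at every dose.

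Cps1 makes carbamoyl phosphate from ammonia, the entry step of the cycle. It read 6.40, 6.81, 7.23, 8.51 and 8.54 in the 5 controls. At 6.25 mg/kg it read 6.85, 7.09, 7.42, 7.46 and 8.68, at 12.5 mg/kg 6.12, 6.86, 7.40 and 8.47, and at 25 mg/kg 6.91, 7.15, 7.21, 7.42 and 8.60. The groups overlapped, and the value above 8 in each group, or the pair of them in controls, came from slide 1. Its mean was 7.50 ± 0.983 in controls, 7.50 ± 0.704 at 6.25 mg/kg, 7.21 ± 0.985 at 12.5 mg/kg and 7.46 ± 0.665 at 25 mg/kg (SD, n = 5, 5, 4 and 5). The log2 change at 25 mg/kg was -0.04 ± 0.479 (SE), with a 95% confidence interval that spanned 0.486- to 1.95-fold (limma, adjusted p = 0.990). With slide as a block it was 0.22 ± 0.138 at 25 mg/kg and 0.26 ± 0.138 at 6.25 mg/kg, and neither passed (limma, adjusted p = 0.504 and 0.486).

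Nags makes N-acetylglutamate, the activator that carbamoyl phosphate synthetase needs. It read 4.45 to 6.05 in controls (median 4.93), 4.50 to 6.04 at 6.25 mg/kg (median 5.08), 4.34 to 5.48 at 12.5 mg/kg and 4.68 to 6.03 at 25 mg/kg (median 5.05). The slide 1 array at 12.5 mg/kg read 5.48, where the other 4 arrays of that slide read 6.03 to 6.05. That array also had the lowest share of liver spots above background on its slide (38.3%), and the part of this in the reading was not tested. Its log2 change was -0.15 ± 0.342 at 25 mg/kg, and 0.03 ± 0.129 with slide as a block, an interval of 0.849- to 1.23-fold.

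Otc joins carbamoyl phosphate to ornithine, and Slc25a15 carries ornithine into the mitochondrion in exchange for citrulline. The brighter Otc probe read 7.82 to 9.72 in controls, 8.12 to 9.66 at 6.25 mg/kg, 7.82 to 9.16 at 12.5 mg/kg and 7.97 to 9.39 at 25 mg/kg. Its log2 change at 25 mg/kg was -0.14 ± 0.355 (0.04 ± 0.163 with slide as a block), and the dimmer probe gave -0.17 ± 0.366 (0.01 ± 0.114).

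Slc25a15 read 2.93, 3.26, 3.56, 4.08 and 4.36 in controls. It read 2.72, 3.31, 3.57, 3.58 and 4.06 at 6.25 mg/kg, 2.63, 2.97, 3.00 and 3.69 at 12.5 mg/kg, and 2.99, 3.18, 3.33, 3.56 and 3.94 at 25 mg/kg. The 12.5 mg/kg animals had the lowest mean, and their values overlapped those of every other group. The log2 change at 12.5 mg/kg was -0.56 ± 0.296 without and -0.44 ± 0.166 with slide as a block. The second had an unadjusted p of 0.0167, which did not hold after adjustment (limma, adjusted p = 0.415). That dose was lower than control within each slide, by -0.53, -0.43 and -0.28 on slides 1, 2 and 3, where slides 1 and 3 held a single animal at this dose. The array of the slide 1 animal had the lowest share of liver spots above background on its slide (38.3%), and the part of this was not tested.

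Ass1 condenses citrulline with aspartate, and Asl splits the product into arginine and fumarate. Ass1 averaged 4.53 ± 0.446 in controls, 4.42 ± 0.429 at 6.25 mg/kg, 4.36 ± 0.434 at 12.5 mg/kg and 4.47 ± 0.217 at 25 mg/kg (SD, n = 5, 5, 4 and 5). With slide as a block its log2 change at 25 mg/kg was 0.10 ± 0.0955, and the interval reached from 0.930- to 1.23-fold. Without the block it was -0.06 ± 0.229.

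Asl read 3.16, 3.48, 3.76, 3.99 and 4.03 in controls. It read 3.60, 3.62, 3.71, 3.96 and 4.46 at 6.25 mg/kg, 3.33, 3.36, 3.65 and 4.04 at 12.5 mg/kg, and 3.75, 3.83, 3.89, 4.00 and 4.40 at 25 mg/kg. The 25 mg/kg animals lay in the upper part of the range and overlapped 3 of the 5 controls. The log2 change at 25 mg/kg was 0.29 ± 0.197, and 0.38 ± 0.158 with slide as a block (limma, unadjusted p = 0.0258, adjusted p = 0.265). The within-slide differences did not share a direction. They were 0.74 on slide 2 and 0.34 on slide 3, whereas on slide 1 the single 25 mg/kg animal read 3.83 and lay below both controls (-0.18). Without that animal the adjusted p of the blocked fit was 0.0604, the smallest that any of the 10 genes gave in any setting tried.

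Arg1 cleaves arginine to urea and ornithine, the last step of the cycle. It averaged 7.78 ± 0.630 in controls, 7.56 ± 0.476 at 6.25 mg/kg, 7.57 ± 0.725 at 12.5 mg/kg and 7.49 ± 0.642 at 25 mg/kg (SD, n = 5, 5, 4 and 5). Its log2 change at 25 mg/kg was -0.28 ± 0.355, and -0.12 ± 0.130 with slide as a block, an interval of 0.759- to 1.11-fold. Dose group accounted for 0.670% of its variance over arrays.

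Gls2, the liver form of glutaminase, releases ammonia from glutamine in the mitochondrion. It read 4.90, 5.07, 5.23, 5.39 and 5.43 in controls, and 4.99, 5.35, 5.40, 5.45 and 5.83 at 6.25 mg/kg. It read 5.04, 5.14, 5.15 and 5.58 at 12.5 mg/kg, and 5.15, 5.30, 5.46, 5.53 and 5.80 at 25 mg/kg. Its groups overlapped as measured, and at 25 mg/kg they also overlapped control after each slide was centred. Within each slide every 25 mg/kg animal read above every control, but slide 1 held 1 animal at this dose and slide 3 held 1 control. Cps1 at 6.25 mg/kg stood above control within each slide in the same way. The share of all probes that did so was not counted, so neither separation can be weighed against chance. The differences at 25 mg/kg were 0.38, 0.42 and 0.16 on slides 1, 2 and 3. The log2 change at 25 mg/kg was 0.24 ± 0.156 without and 0.33 ± 0.0990 with slide as a block, and the blocked interval spanned 1.09- to 1.45-fold. It did not pass after adjustment (limma, unadjusted p = 0.00375, adjusted p = 0.122). At 6.25 mg/kg the blocked change was 0.29 ± 0.0990 (limma, unadjusted p = 0.00894, adjusted p = 0.280), and at 12.5 mg/kg it was 0.09 ± 0.104.

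Hal opens histidine breakdown and Sds removes ammonia from serine. Hal averaged 6.46 ± 0.442 in controls, 6.28 ± 0.229 at 6.25 mg/kg, 6.27 ± 0.381 at 12.5 mg/kg and 6.31 ± 0.268 at 25 mg/kg (SD, n = 5, 5, 4 and 5). Its log2 change at 25 mg/kg was -0.15 ± 0.201, and -0.06 ± 0.133 with slide as a block.

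Sds varied widely between animals. It read 5.12, 5.41, 5.54, 6.67 and 6.73 in controls, 4.88, 5.87, 6.02, 6.07 and 7.54 at 6.25 mg/kg, 4.58, 5.66, 6.08 and 6.81 at 12.5 mg/kg, and 5.45, 5.87, 6.07, 6.22 and 6.65 at 25 mg/kg. The groups overlapped, and the lowest reading of all came from a 12.5 mg/kg animal on slide 2. On slide 3 all 3 doses lay above control, by 0.85, 0.96 and 1.02 at 6.25, 12.5 and 25 mg/kg, and all 3 differences rest on the same control animal, which read 5.12. On slide 2 the differences were -0.02, -0.36 and 0.18. The log2 change at 25 mg/kg was 0.16 ± 0.450, and 0.37 ± 0.244 with slide as a block (limma, adjusted p = 0.523).

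**Figure D2:**
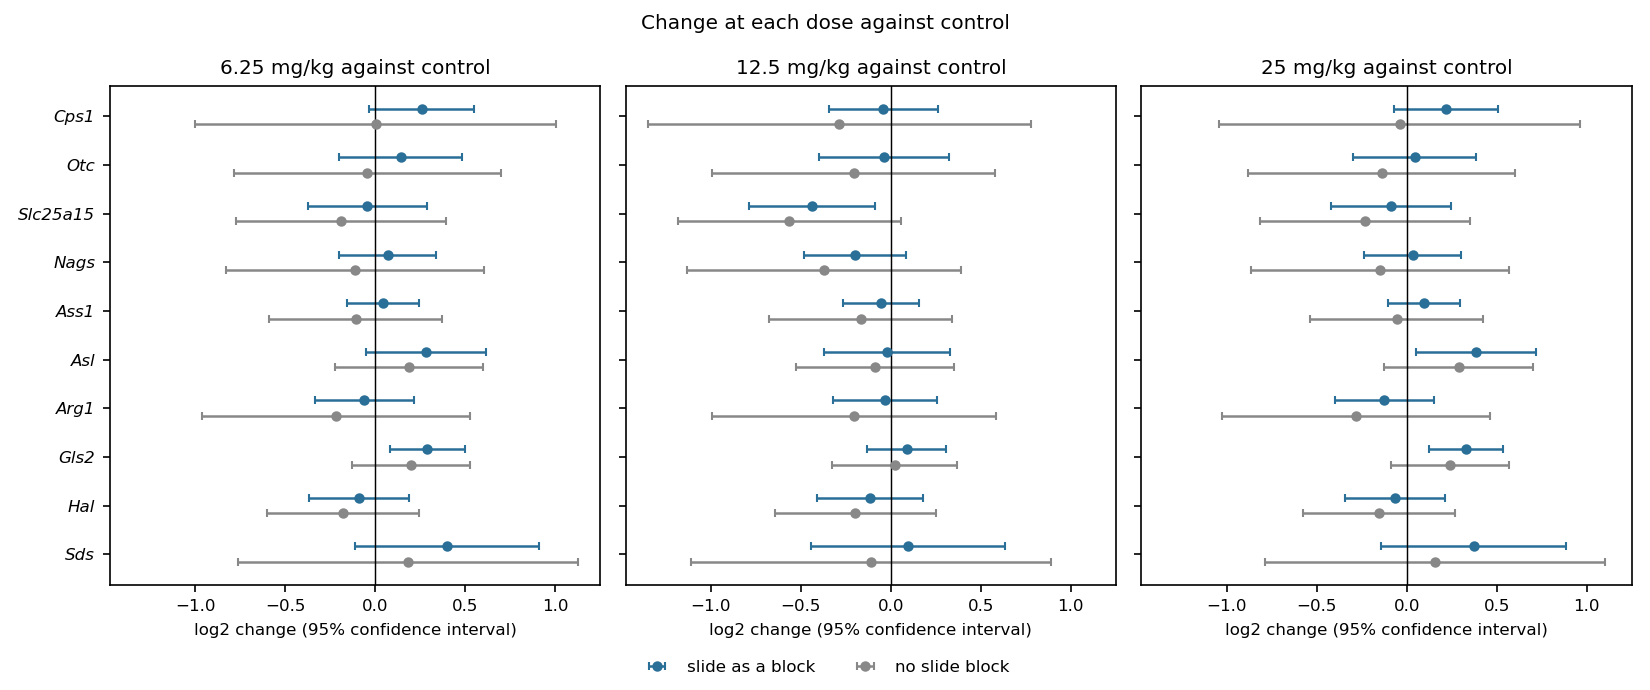
Log2 change against control (horizontal axes) for the 10 genes at 6.25, 12.5 and 25 mg/kg, with 95% confidence intervals from limma. Upper points (blue) include slide as a block and lower points (grey) do not. The block narrows the intervals, and the blocked intervals that miss 0 belong to Gls2 (6.25 and 25 mg/kg) and Asl (25 mg/kg) above 0 and to Slc25a15 (12.5 mg/kg) below it.

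With slide as a block, again 0 of the 12 probes passed at any dose, while 0.816% of all probes did at 25 mg/kg, 0.00680% at 12.5 mg/kg and 0% at 6.25 mg/kg. The F test called 0 against 0.0748% of all probes, and the dose trend called 0 against 0.241%. At an unadjusted p under 0.05, Gls2 and Asl passed at 25 mg/kg (2 of 12 probes, where 14.6% of all probes did), Slc25a15 at 12.5 mg/kg (1 of 12, against 9.51%) and Gls2 at 6.25 mg/kg (1 of 12, against 11.7%). Gls2 was also the 1 probe of 12 in the F test, against 14.3% of all probes, and in the dose trend, against 10.8%.

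The direction of the small differences depended on the block at 6.25 and 25 mg/kg. At 25 mg/kg, 3 of the 10 genes read higher than control and 7 lower without it, and 7 read higher and 3 lower with it. At 6.25 mg/kg, 4 read higher and 6 lower without it, and 7 read higher and 3 lower with it. At 12.5 mg/kg most read lower either way, 9 of 10 without the block and 8 of 10 with it. At 25 mg/kg the median log2 change of the 10 genes was -0.10 without and 0.07 with the block, where the median of all 13812 genes was -0.01 and 0.00. At 12.5 mg/kg the 10 genes had a median of -0.20 without and -0.04 with the block, and at 6.25 mg/kg -0.08 without and 0.11 with it. The median standard error of the 10 genes at 25 mg/kg was 0.31 without and 0.14 with the block, against 0.15 and 0.11 for all genes. As measured, no probe of the 10 genes had a dose group that did not overlap control, where 1.73% of all probes did at 25 mg/kg, 1.43% at 12.5 mg/kg and 0.975% at 6.25 mg/kg. After each slide was centred, Cps1 at 6.25 mg/kg was the only one of the 12 probes without overlap. The share of all probes without overlap was then 2.33% at 6.25 mg/kg, 4.26% at 12.5 mg/kg and 4.46% at 25 mg/kg.

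The slide differences were large. Slide 1 minus slide 2 was 1.78 for Cps1, 1.23 for Otc, 0.91 for Slc25a15, 1.25 for Nags, 0.75 for Ass1, 0.37 for Asl, 1.31 for Arg1, 0.39 for Gls2, 0.61 for Hal and 1.46 for Sds on the log2 scale. For 9 of the 12 probes every slide 1 array read above every other array, and the exceptions were Asl, Gls2 and Hal. Slide accounted for 90.7% of the variance of Cps1, 89.1% of Arg1, 86.4% of Ass1 and 86.2% of Nags, but 45.4% of Gls2 and 25.9% of Asl, against a median of 40.8% over all named genes. Dose group, after slide, accounted for 29.7% of the variance of Gls2 and 27.5% of Asl, against a median of 11.9%, and for 1.41% of Otc and 1.86% of Hal.

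**Figure D3:**
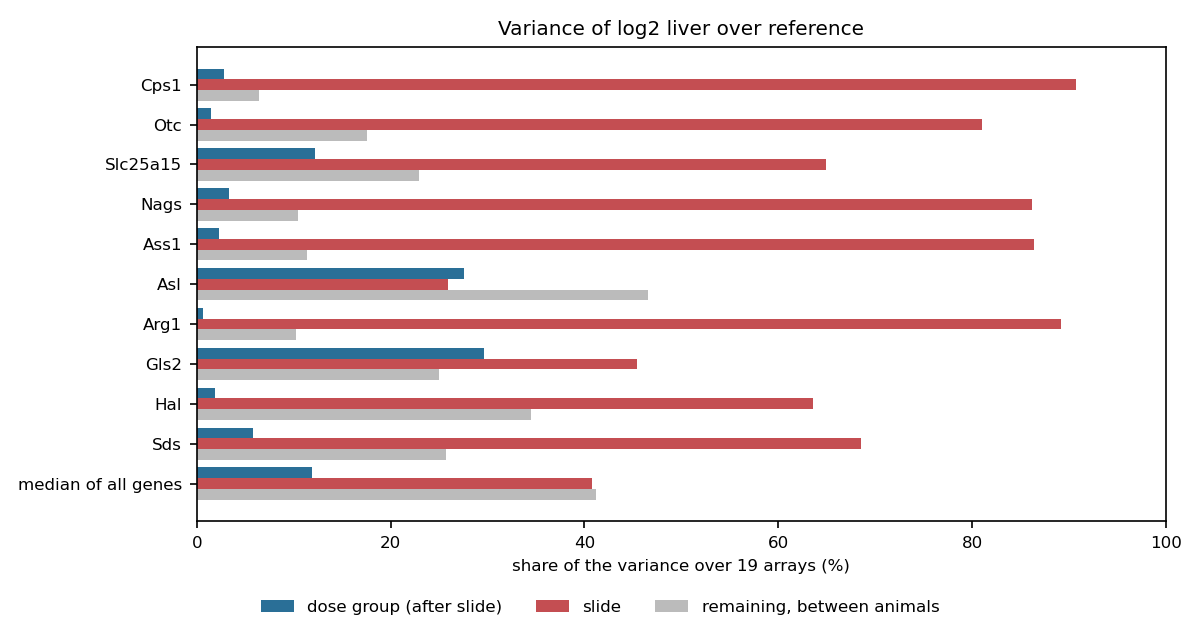
Share of the variance of log2 liver over reference over the 19 arrays, in percent (horizontal axis), taken by dose group after slide, by slide, and left between animals, for each of the 10 genes and as the median of all named genes. Slide takes the longest bar for 9 of the 10 genes, and Asl is the exception.

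The slide gap was shared with other genes of like ratio. Among 689 other genes whose mean log2 liver over reference lay between 3.41 and 8.61, 97.1% read higher on slide 1 than on slide 2, with a median gap of 0.88. Among 6703 genes at or below 0, 34.5% did, with a median of -0.14. The median gap of the 10 genes was 1.07 for the ratio used here and 1.10 in the deposited table of ratios. It was 0.30 for log2 liver intensity alone, taken after loess between the dyes and with average intensities made alike across arrays. That value is an intensity and not a ratio, so it does not show which dye the gap comes from. What makes slide 1 differ was not tested.

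Between animals of a slide, the 10 genes varied together in part. After centring on slide, 42 of the 45 pairs correlated above 0 over 19 arrays, with a median Pearson r of 0.47. Pairs of these genes with all other genes, whatever their liver over reference ratio, had a median of 0.04. Genes of like ratio were not compared apart, so these values do not show whether the correlation is particular to the 10 genes. The values of a pair share an array, a liver and a reference hybridisation. By permutation of animals within slides (100000 permutations, two-sided), 7 of the 45 pairs passed after Benjamini-Hochberg adjustment over the 45. All 7 also passed by Spearman's rho, and each kept r above 0.5 without the 2 arrays farthest from the median of the first gene.

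The first of the 7 was Ass1 with Sds (Pearson r = 0.80, adjusted permutation p = 0.00135, Spearman rho = 0.77, adjusted permutation p = 0.00630, r = 0.73 without the 2 farthest arrays). Otc with Nags gave r = 0.75 (adjusted permutation p = 0.0126, rho = 0.74, adjusted permutation p = 0.0208, r = 0.68 without the 2 farthest). Slc25a15 with Nags gave r = 0.70 (adjusted permutation p = 0.0243, rho = 0.64, adjusted permutation p = 0.0424, r = 0.61 without the 2 farthest). Cps1 with Asl gave r = 0.73 (adjusted permutation p = 0.0390, rho = 0.64, adjusted permutation p = 0.0423, r = 0.66 without the 2 farthest).

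Asl with Gls2, the 2 genes with the largest dose shares of variance, gave r = 0.73 (adjusted permutation p = 0.0238, rho = 0.68, adjusted permutation p = 0.0311, r = 0.57 without the 2 farthest). Arg1 with Hal gave r = 0.66 (adjusted permutation p = 0.0174, rho = 0.75, adjusted permutation p = 0.0182, r = 0.59 without the 2 farthest). Otc with Hal gave r = 0.65 (adjusted permutation p = 0.0408, rho = 0.71, adjusted permutation p = 0.0221, r = 0.62 without the 2 farthest). Arg1 with Gls2 gave r = -0.32 (adjusted permutation p = 0.335, rho = -0.16, adjusted permutation p = 0.615, r = -0.17 without the 2 farthest). Arg1 with Asl had no settled direction (r = -0.24, adjusted permutation p = 0.528, rho = 0.053, adjusted permutation p = 0.852, r = 0.17 without the 2 farthest). With dose group removed as well as slide, 6 of the 45 pairs passed, and Asl with Gls2 (r = 0.55, adjusted permutation p = 0.0925) and Slc25a15 with Nags (r = 0.62, adjusted permutation p = 0.0925) were not among them. The 6 included Slc25a15 with Gls2 (r = 0.71, adjusted permutation p = 0.0373), which had not passed with slide alone removed (r = 0.47, adjusted permutation p = 0.125). Left uncentred, 43 of the 45 pairs passed, with a median r of 0.81. The count of 7 rests in part on 2 controls of slide 2: it was 3 without control replicate 2 and 4 without control replicate 3.

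**Figure D4:**
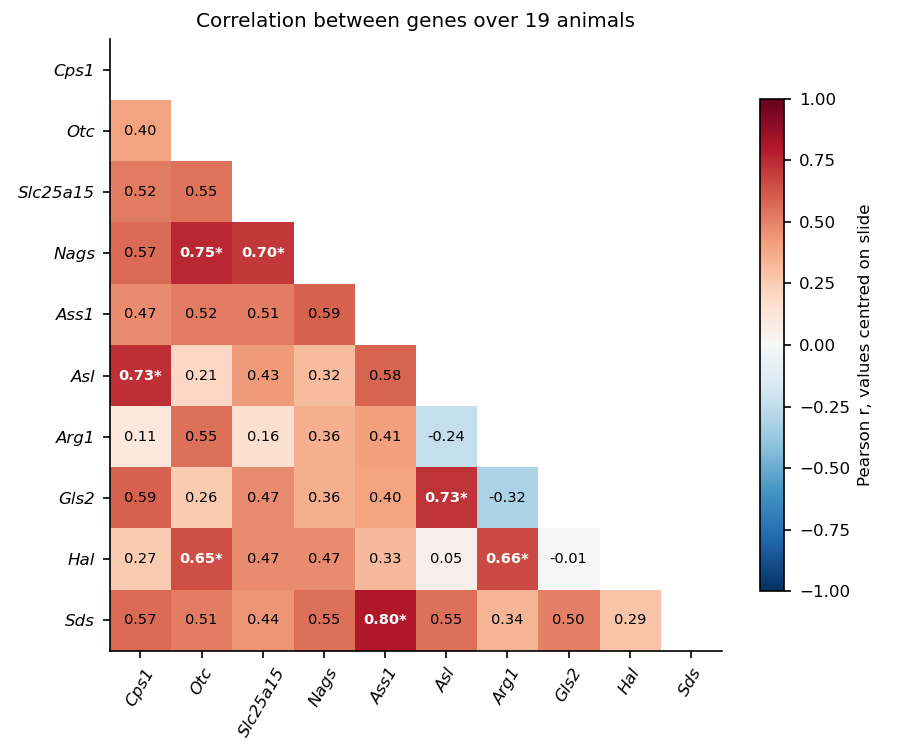
Pearson r between each pair of the 10 genes over 19 animals, with values centred on slide (colour scale from -1 to 1). Bold values with an asterisk mark the 7 pairs with an adjusted permutation p under 0.05. Of the 45 pairs, 42 are above 0, and the values below 0 belong to Arg1 with Asl and Gls2 and to Gls2 with Hal.

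The share of liver spots above background on an array correlated with some of these genes by Pearson r. This share is not the intensity: the 12.5 mg/kg array of slide 1 had 38.3% of spots above background but a median liver intensity of 110. Over 19 arrays centred on slide, the share of liver spots above background correlated with Nags (Pearson r = 0.74, adjusted permutation p = 0.0264 over 10 relations, Spearman rho = 0.62, adjusted permutation p = 0.0867, r = 0.50 without the 2 farthest arrays). It correlated with Cps1 (r = 0.47, adjusted permutation p = 0.0264, rho = 0.48, adjusted permutation p = 0.144, r = 0.42 without the 2 farthest) and with Slc25a15 (r = 0.54, adjusted permutation p = 0.0412, rho = 0.55, adjusted permutation p = 0.0993, r = 0.38 without the 2 farthest). None of the 10 passed by Spearman's rho after adjustment. The median r was 0.33 for the 10 genes and 0.04 for all named genes, and the part of this share in the pair correlations was not tested.

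The genes most like the 10 were sought among 13515 others by Pearson r, over 19 slide-centred arrays, with the mean of the 10 scaled genes. They were Ido2 (0.94), which breaks down tryptophan, Kalrn (0.89), Slc25a21 (0.88), a mitochondrial carrier of 2-oxoadipate, Hoga1 (0.88), of hydroxyproline breakdown, and Dleu2 (0.87). Without slide as a block, none of the 5 passed at any dose. Their log2 changes in that fit lay between -0.01 and 0.18 at 6.25 mg/kg. At 12.5 mg/kg they lay between -0.36 and -0.14, and all 5 read lower than control. At 25 mg/kg they lay between -0.03 and 0.11 (limma, adjusted p of 0.944 or above). The 5 were picked for likeness to the 10 genes over the same 19 arrays, so a shared direction follows in part from that choice.

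Neighbouring steps of amino acid metabolism gave no called change either without the block. Of 23 urea cycle partners (carriers, glutamate and proline enzymes), 19 were kept and 0 rose or fell at any dose. Slc25a13, which exports aspartate from the mitochondrion for the Ass1 step, had a log2 change of 0.41 ± 0.134 at 25 mg/kg (0.36 ± 0.118 with slide as a block; limma, adjusted p = 0.371 and 0.153). Oat, ornithine aminotransferase, read 0.45 ± 0.169 at 6.25 mg/kg and -0.04 ± 0.169 at 25 mg/kg. Gpt2, an alanine aminotransferase, read 0.33 ± 0.199 at 25 mg/kg. The median change of this list at 25 mg/kg was 0.15 without and 0.17 with the block.

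In histidine, serine, glycine and threonine breakdown, 15 of 16 genes were kept and 0 were called. Gldc of the glycine cleavage system read -0.53 ± 0.243 at 25 mg/kg and -0.64 ± 0.258 at 12.5 mg/kg, Gcat read -0.37 ± 0.174 and Srr -0.14 ± 0.0862 at 25 mg/kg. In aromatic, branched chain, sulfur and lysine breakdown, 27 of 28 genes were kept and 0 were called. At 25 mg/kg, 6 of these read higher than control and 21 lower without the block (median -0.08). With the block, 17 read higher and 10 lower (median 0.05). Dbt read 0.14 ± 0.126, Bckdhb -0.28 ± 0.141 and Cth -0.13 ± 0.119 at 25 mg/kg. Of 14 known regulators of amino acid genes, all were kept and 0 were called. Ppargc1a, a coactivator induced by fasting, read 0.61 ± 0.241 at 6.25 mg/kg and 0.18 ± 0.241 at 25 mg/kg. Atf4, of the amino acid response, read -0.45 ± 0.210 and Nr3c1, the glucocorticoid receptor, 0.24 ± 0.102 at 25 mg/kg.

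Markers of liver zones outside the 10 genes were compared in the same fit. Among 11 periportal markers, 0 were called, and Ctsc read 0.48 ± 0.173, Cdh1 -0.38 ± 0.206 and G6pc -0.56 ± 0.318 at 25 mg/kg. Of 15 pericentral markers, 14 were kept, and Avpr1a, a vasopressin receptor, fell at 25 mg/kg with slide as a block (-1.06 ± 0.235, limma, adjusted p = 0.0421) but did not pass without it (-1.12 ± 0.250, adjusted p = 0.109). Lgr5 read 0.69 ± 0.337 at 6.25 mg/kg and -0.44 ± 0.337 at 25 mg/kg. Median changes at 25 mg/kg were -0.13 for the periportal and -0.12 for the pericentral list without the block, and 0.00 and -0.01 with it.

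**Figure D5:**
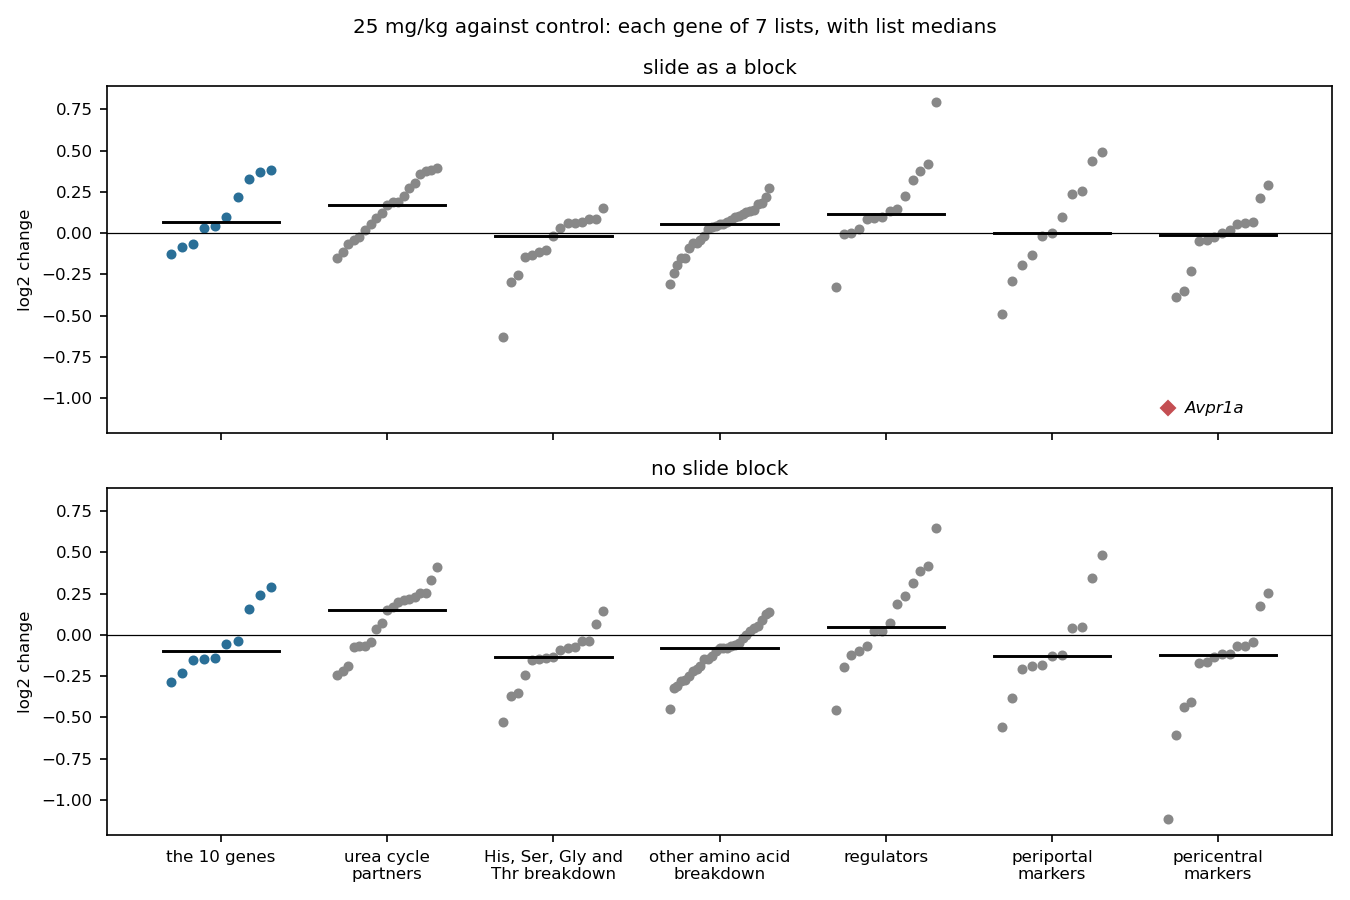
Log2 change at 25 mg/kg against control (vertical axes) for each gene of the 10 described and of 6 further lists, sorted within a list, with list medians as bars. The upper panel has slide as a block and the lower panel does not. The red diamond marks Avpr1a, the only gene of these lists past an adjusted p of 0.05, and it passed with slide as a block.

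Hepatocyte markers checked the tissue label. All 9 that were measured by accession, among them Alb, Ttr, Apoa1 and Hnf4a, were above background on every array. All 9 read lower than control at each dose without the block, with a median of -0.30 at 25 mg/kg (-0.05 with the block), and none passed. Of 5 pancreas markers, 2 (Prss1 and Pnlip) were above background on no array, whereas 1 (Amy2a5) was above background on all 19, and Amy2a5 and Cela1 were kept for testing. Of the further cell type lists (macrophage, neutrophil, lymphocyte, stellate, endothelial, cholangiocyte, erythroid and adipose), 0 genes were called at any dose with or without the block.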

How the data were processed

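Liver RNA of 19 mice was measured on Agilent mouse 8 x 60 K arrays, 200 ng per sample. Per the file headers, Feature Extraction 10.7.3.1 gave each spot a median intensity per dye, with a median for its surroundings. The deposited table holds log2 ratios of liver over reference, whose making is not given in the sources used here. Its columns correlated at 0.993 to 0.996 with log2 ratios recomputed by loess from median signals with no background taken off, which settles its base and direction, and column medians lay between -0.04 and -0.02.

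Median signals were corrected with normexp (offset 50) and loess-normalised within arrays in limma 3.58.1 under R 4.3.3, with control spots at weight 0. Outlier spots were set to missing and spots of a probe averaged. Probes were tested if, on 4 or more arrays, a share above 0.5 of their spots exceeded background in liver. The brightest such probe stood for a gene. RefSeq accessions were named through a table of GRCm38.p6, which named 47.4% of probes. Dose groups were compared with lmFit and eBayes over 19 arrays, two-sided, with Benjamini-Hochberg adjustment over 29415 probes and a threshold of 0.05. The code was tested on simulated data.

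The labels give separate animals, and the number of arrays limits the precision. The genes and lists were chosen with earlier results of these data known. From each list the 3 genes of smallest F test p are named, plus any past the threshold in any comparison, and the 5 genes most like the 10 by correlation.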

Additional observations from a re-analysis of the deposited data

Results flagged for a closer look

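A single animal stood apart from the rest of its dose group in 3 of 48 sets of values (12 probes in 4 groups). The measure was the gap to its nearest neighbour over the range of the set. For independent values from a single normal population, about 1 in 20 groups would do so by chance. These values were not centred on slide and the 48 sets share arrays, so that rate does not apply here. All 3 belonged to Ass1 and came from 2 animals, both on slide 1. The brighter Ass1 probe read 5.17 in 6.25 mg/kg replicate 5, where the next animal of that dose read 4.35. The dimmer Ass1 probe read 4.71 in the same animal, where the next read 3.97, and 4.50 in 25 mg/kg replicate 5, where the next read 4.01. Each of these groups had 1 array on slide 1.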

How the results depend on the processing

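No probe of the 10 genes passed at any dose, in the F test or in the dose trend under any setting tried: slide as a block, other background and normalization choices, the deposited table, no filter on dim probes, the mean of a gene's probes, a trended robust prior, only the groups compared (run for the 3 doses alone), without slide 1, and each array left out. Slide as a block with the deposited table, with the liver channel alone and with each array left out was added after seeing the data and called none either, with 0.0604 as the smallest adjusted p. Over all probes at 25 mg/kg, 17 were called, against 240 with slide as a block, 55 with the liver channel alone, 48 with only the groups compared, 33 with the trended robust prior, 29 without slide 1, 10 with no filter on dim probes and 0 to 67 with each array left out. The F test called 3 probes, against 22 with slide as a block and 0 to 12 with each array left out, and the dose trend called 6, against 71 and 0 to 83. With slide as a block and each array left out, the counts were 25 to 321 at 25 mg/kg, 0 to 102 in the F test and 4 to 263 in the dose trend. Directions were less stable, and none of the changes below passed. With slide as a block, the log2 change turned sign for Otc (0.14), Nags (0.070) and Ass1 (0.043) at 6.25 mg/kg, for Sds (0.093) at 12.5 mg/kg, and for Cps1 (0.22), Otc (0.045), Nags (0.034) and Ass1 (0.095) at 25 mg/kg. With the processed signals of the scanner software, the log2 change turned sign for Cps1 (-0.10), Otc (0.13) and Ass1 (0.14) at 6.25 mg/kg, for Otc (0.11) and Gls2 (-0.0085) at 12.5 mg/kg, and for Ass1 (0.15) at 25 mg/kg. With the liver channel alone, the log2 change turned sign for Otc (0.0028) and Nags (0.0057) at 6.25 mg/kg, for Gls2 (-0.024) and Sds (0.34) at 12.5 mg/kg, and for Cps1 (0.25), Otc (0.033), Ass1 (0.10) and Arg1 (0.010) at 25 mg/kg. In the deposited table, the log2 change turned sign for Ass1 (0.079) at 6.25 mg/kg, and for Ass1 (0.12) at 25 mg/kg. Without the 5 arrays of slide 1, the log2 change turned sign for Otc (0.18), Slc25a15 (0.044), Nags (0.19), Ass1 (0.018), Arg1 (0.028) and Hal (0.048) at 6.25 mg/kg, for Otc (0.046) and Sds (0.083) at 12.5 mg/kg, and for Cps1 (0.36), Otc (0.13), Slc25a15 (0.020), Nags (0.14), Ass1 (0.16) and Hal (0.022) at 25 mg/kg. With each array left out in turn, the changes that turned sign ranged, at 6.25 mg/kg, over -0.29 to 0.26 for Cps1, -0.29 to 0.21 for Otc, -0.33 to 0.083 for Nags, -0.29 to 0.033 for Ass1 and -0.18 to 0.48 for Sds. At 12.5 mg/kg they ranged over -0.70 to 0.077 for Cps1, -0.43 to 0.047 for Otc, -0.23 to 0.0018 for Asl, -0.51 to 0.071 for Arg1, -0.096 to 0.086 for Gls2 and -0.45 to 0.29 for Sds. At 25 mg/kg they ranged over -0.32 to 0.22 for Cps1, -0.36 to 0.11 for Otc, -0.37 to 0.046 for Nags, -0.16 to 0.086 for Ass1, -0.27 to 0.017 for Hal and -0.037 to 0.36 for Sds. The number of gene pairs that correlated was 7, and it was 43 without centring on slide and 3 to 9 with each array left out. No paired analysis was possible because the labels give no replicate number shared by the groups. The cause of these shifts was not tested. Every liver reading was above background, and the reference channel limits Slc25a15, above background there on 8 of 19 arrays.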
